A study of Homo sapiens with 6 samples.

Results

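The 87 histone genes named on the array were described in Hep3B, a widely used human line from a hepatocellular carcinoma. Members were the genes whose symbol on the platform begins with H1-, H2A, H2B, H3 or H4, and they made up 87 of 20045 genes with a named probe. Of these, 70 were replication-dependent genes, 15 encoded variants and 2 were pseudogenes. The study profiled 6 samples, each on 1 Illumina expression BeadChip array. The control group (n = 3) received the solvent DMSO for 24 h, and the other group (n = 3) received sorafenib, a liver cancer drug that blocks RAF kinases and several receptor tyrosine kinases, for 24 h at a dose that the labels give as 3 mM. Sorafenib is usually given to cultured cells at micromolar doses, and the unit of the label could not be checked. Both groups were the same cell line, so the values describe 1 tumour's derived cells. The labels number the samples of a group 1 to 3 and do not say whether each was its own culture. The p-values therefore measure the spread among these 6 samples, and part or all of that spread may be technical.

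Core histones H2A, H2B, H3 and H4 form the nucleosome, and linker histone H1 binds the DNA between nucleosomes. Most of them are encoded by replication-dependent genes, which lie in clusters, are transcribed mainly in S phase and yield mRNAs that normally end in a stem-loop in place of a poly(A) tail. Variant histones such as H2A.X, H2A.Z and H3.3 are encoded by solitary genes, most of whose mRNAs are polyadenylated and made throughout the cell cycle. Labelling kits that prime cDNA synthesis from the poly(A) tail read the stem-loop mRNAs poorly. How the kit used here primes was not given in the sources used here, so the level of a replication-dependent gene below may be that of polyadenylated forms.

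Values below are log2 intensities after background correction and quantile normalization, differences are sorafenib minus control with limma's moderated standard error (SE), and adjusted p-values are limma's with Benjamini-Hochberg adjustment over all 16909 probes tested at a threshold of 0.05, which 34.1% of the probes passed. Each array detected 16214 to 17380 of its 47321 probes (detection p under 0.01), and normalized values correlated across the tested probes at 0.992 to 0.997 within a group and 0.977 to 0.981 between groups. All 8 measured hepatocyte and liver cancer markers, ALB and AFP among them, were detected on every array. Among 11 markers of other cell types, 9 were not detected. The exceptions were CD68, which did not pass the test, and LYZ, which fell by 1.82 ± 0.12 (log2, SE).

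Transcripts of 25 histone genes were detected, by the rule of a detection p under 0.01 on at least 3 of the 6 arrays. They comprised 16 of the 70 replication-dependent genes, 8 of the 15 variants and 1 of the 2 pseudogenes. Detection was uneven among the families of replication-dependent genes: 6 of 17 H2A genes, 4 of 15 H4 genes, 3 of 18 H2B genes, 2 of 6 H1 genes and 1 of 14 H3 genes. All 3 variant H3 genes were detected, against 4 of 8 variant H2A genes and 1 of 3 variant H1 genes. The variants not detected were H1-7, H1-8, H2AB1, H2AB2, H2AB3, H2AP and H2BW1, most of them known from germ cells. Of the 72 member probes that did not meet the rule, 71 were detected on no array and 1 on a single array. The 55 replication-dependent genes on chromosome 6 lay between positions 25726063 and 27893891 (GRCh38.p14), and 10 of them were detected. In the cluster on chromosome 1 between 149782689 and 149887965, 5 of 11 genes were detected, and in that between 228424845 and 228458558, 1 of 3.

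**Figure D1:**
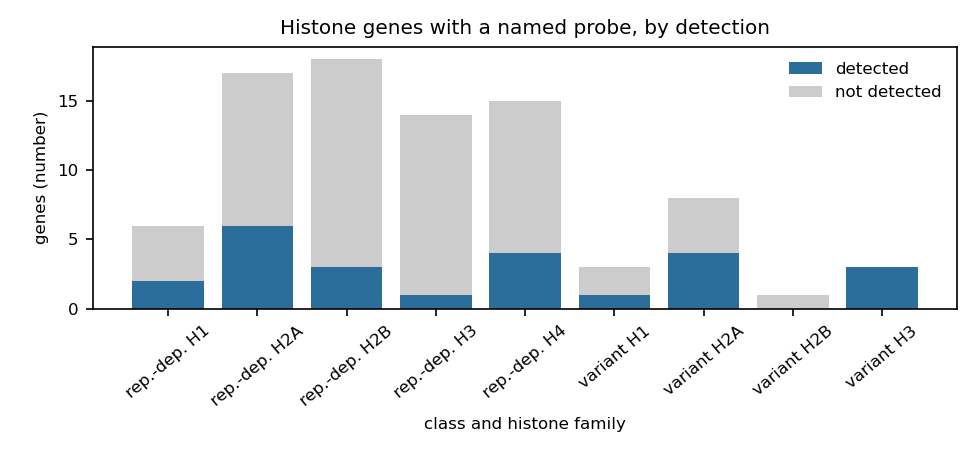
Number of histone genes with a named probe (y axis) by class and histone family (x axis; rep.-dep., replication-dependent), split into genes detected on at least 3 of 6 arrays and genes not detected. Of the replication-dependent H3 genes 1 of 14 was detected, while all 3 variant H3 genes were.

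Most of the detected replication-dependent genes were lower with sorafenib: 12 of 16 fell, 1 rose and 3 did not pass. Over all 10598 genes tested, 17% fell and 19.7% rose (36.7% passed in either direction). The median difference of the 16 genes was -0.62 on the log2 scale, against -0.00054 for all genes tested. Without background correction, and with the deposited log2 values, the median was -0.39, and the differences of 6 genes that had passed the test moved by over 1.5 times while keeping their direction: H2AC6 (-0.50), H2BC21 (-0.41), H4C12 (-0.31), H2AC17 (-0.19), H4C14 (-0.14) and H2AC25 (0.29). H2AC6 and H2AC17 were not detected on any sorafenib array and met the detection rule through the control arrays alone, so they had to differ. H4C12, which fell, and H3C6, which did not pass, were each detected on 3 control arrays and 1 sorafenib array. These 2 genes also met the rule only through the control arrays. With H2AC6 and H2AC17 at their bounds the median was -0.58, and of the 10 genes detected on all 6 arrays 9 fell. In bulk RNA, fewer cells in S phase and less histone mRNA per cell cannot be told apart.

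Among H2B genes, H2BC5 showed the widest gap. Its log2 intensities were 9.61, 9.45 and 9.59 on the control arrays and 8.30, 8.21 and 8.23 on the sorafenib arrays. The groups did not overlap, and the gap was far wider than the spread within either group. H2BC5 fell 2.46-fold (log2 -1.30 ± 0.07, SE, adjusted p = 8.28e-05). The other 2 probes of H2BC5, 1 of them annotated to a different transcript, were not detected, so this fall rests on 1 probe. H2BC12 had 11.67, 11.52 and 11.75 in control cells and 10.95, 10.72 and 10.95 with sorafenib. Every sorafenib array lay below every control array, and H2BC12 fell 1.71-fold (-0.77 ± 0.10, adjusted p = 0.00134). Its second probe fell by 0.85 on the log2 scale, so both probes of this gene moved alike. H2BC21 stood at 7.19, 7.08 and 7.16 in control cells and at 6.43, 6.36 and 6.51 with sorafenib. It fell 1.63-fold (-0.71 ± 0.07, adjusted p = 0.000627), again without overlap. In RefSeq these 3 H2B genes are annotated over 13229, 8566 and 2224 bases, where the median span of the detected replication-dependent genes was 526 bases. Spans over 1000 bases were held by 4 of the 16 detected and 4 of the 54 undetected replication-dependent genes, and such spans can include a spliced or extended transcript.

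H2A pairs with H2B in a dimer, and 5 of its 6 detected replication-dependent genes fell. H2AC6 and H2AC17 among them met the detection rule through the control arrays alone, so their p-values are not evidence of a fall. H2AC20 had control values of 9.51, 9.52 and 9.50 and sorafenib values of 8.62, 8.51 and 8.59. It fell 1.91-fold (-0.93 ± 0.06, adjusted p = 0.000141). H2AC20 and H2BC21 are divergent neighbours on chromosome 1 with 235 bases between them, and both fell. H2AC19 gave 8.37, 8.66 and 8.67 in control cells and 7.43, 7.45 and 7.90 with sorafenib, a 1.96-fold fall (-0.97 ± 0.15, adjusted p = 0.00326). H2AC18 gave 8.49, 8.39 and 8.47 against 7.17, 7.67 and 7.83, a 1.86-fold fall (-0.89 ± 0.16, adjusted p = 0.00639). H2AC18 and H2AC19 are near-identical copies whose probes may bind either transcript, so these 2 values may not be separate measurements, and sorafenib replicate 3 was the highest of its group for both. H2AC6 read 6.36, 6.19 and 6.67 in control cells and 5.38, 5.16 and 5.31 with sorafenib, where no array detected it. With background correction its fall was at least 1.48-fold (adjusted p = 0.00104), and without that correction the log2 difference was -0.50. H2AC17, at 6.18, 6.22 and 5.93 against 5.83, 5.56 and 5.60, was likewise undetected with sorafenib. Without background correction its log2 difference was -0.19, and with that correction it fell at least 1.21-fold (adjusted p = 0.0202). That call was lost when control replicate 1, control replicate 2, sorafenib replicate 2 or sorafenib replicate 3 was left out (adjusted p 0.0547 to 0.0674).

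H2AC25, which lies at 228457364 to 228457873 on chromosome 1, apart from the larger clusters, was the replication-dependent gene that rose. Its values were 6.98, 6.72 and 7.02 in control cells and 7.33, 7.34 and 7.42 with sorafenib. All sorafenib arrays lay above all control arrays, and the gene rose 1.37-fold (0.46 ± 0.09, adjusted p = 0.0101). The other 2 genes named at that locus, H3-4 and H2BC26, were not detected.

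Linker histone H1-2 fell by 0.58 ± 0.11 on the log2 scale (adjusted p = 0.00602), from 9.27, 9.26 and 9.10 to 8.49, 8.56 and 8.82. H1-1, detected on 1 control and 2 sorafenib arrays, differed by -0.25 ± 0.26 without passing (adjusted p = 0.515), and its groups overlapped. Its sorafenib values were 5.95, 6.00 and 4.98, so sorafenib replicate 3 set the sign: without it the difference was 0.085. The core histone H3 had a single detected replication-dependent gene, H3C6, at 6.05, 6.15 and 5.99 against 6.08, 5.42 and 5.73. The groups overlapped, and the difference of -0.32 ± 0.16 did not pass (adjusted p = 0.162), although it passed without sorafenib replicate 1 (-0.49, adjusted p = 0.0317).

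Of the 4 detected H4 genes, which encode the same protein, 3 fell. H4C3 went from 15.01, 14.93 and 15.08 to 14.70, 14.63 and 14.58, a 1.29-fold fall (-0.37 ± 0.07, adjusted p = 0.0085). Its groups did not overlap. H4C12 went from 6.41, 6.33 and 6.58 to 6.07, 5.75 and 5.53, a 1.58-fold fall (-0.66 ± 0.14, adjusted p = 0.0122). H4C12 was detected on 1 of 3 sorafenib arrays and met the detection rule only through its control arrays, so its p-value is not evidence of a fall. H4C14 went from 6.42, 6.39 and 6.48 to 6.24, 6.13 and 6.05, a 1.22-fold fall (-0.29 ± 0.07, adjusted p = 0.0232). The H4C14 call was lost without control replicate 1, control replicate 3, sorafenib replicate 2 or sorafenib replicate 3 (adjusted p 0.0572 to 0.0668), and also without background correction (-0.14, adjusted p = 0.0865). H4C8, detected on 2 control arrays and 1 sorafenib array, differed by -0.34 ± 0.14 without passing (adjusted p = 0.115), and passed without sorafenib replicate 1 (-0.47, adjusted p = 0.0465).

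**Figure D2:**
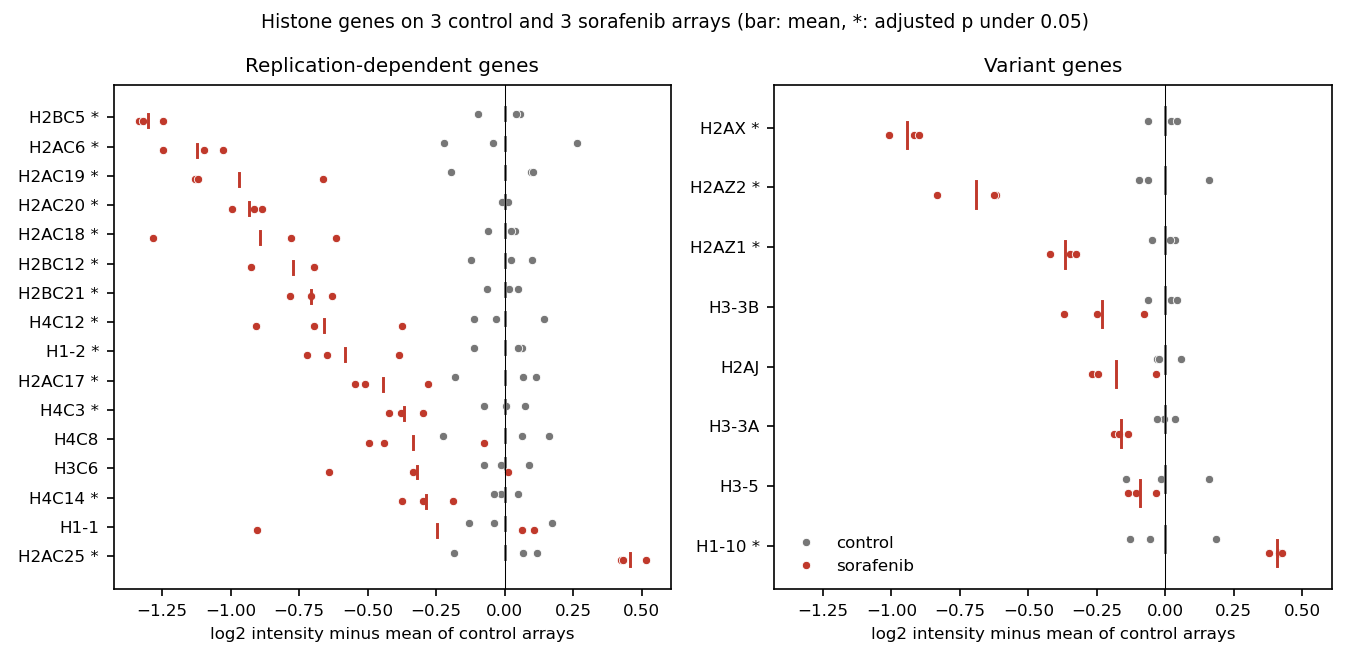
Log2 intensity of each detected replication-dependent (left) and variant (right) histone gene on every array, minus the mean of that gene's control arrays (x axis), with genes in rows. Points are single arrays, bars are group means (n = 3) and an asterisk marks an adjusted p under 0.05. H2BC5 and H2AC6 lie farthest to the left, H2AC25 and H1-10 lie to the right, and the groups of H1-1, H3C6 and H4C8 overlap.

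Promoters of the genes whose values carry these differences are shown because replication-dependent genes share core promoter elements. Sequences are RefSeq's (GRCh38.p14), the 150 bases before the annotated start, 5′ to 3′ on the gene's strand. Capitals mark CCAAT, the octamer ATTTGCAT and TATAAA, the first 2 also as their reverse complements. The octamer is known as the element of H2B promoters bound by OCT1. The windows are those of H2BC5 (chr6:26157971-26158120, plus strand), H2BC12 (chr6:27146859-27147008, minus strand), H2BC21 (chr1:149886683-149886832, minus strand), its divergent neighbour H2AC20 (chr1:149886768-149886917, plus strand) and H2AC25 (chr1:228457874-228458023, minus strand).
H2BC5: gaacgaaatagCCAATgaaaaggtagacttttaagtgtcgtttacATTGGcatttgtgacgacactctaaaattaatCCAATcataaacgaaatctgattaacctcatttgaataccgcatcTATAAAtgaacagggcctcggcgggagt
H2BC12: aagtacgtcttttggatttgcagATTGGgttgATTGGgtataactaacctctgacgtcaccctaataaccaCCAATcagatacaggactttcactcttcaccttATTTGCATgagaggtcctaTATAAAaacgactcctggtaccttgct
H2BC21: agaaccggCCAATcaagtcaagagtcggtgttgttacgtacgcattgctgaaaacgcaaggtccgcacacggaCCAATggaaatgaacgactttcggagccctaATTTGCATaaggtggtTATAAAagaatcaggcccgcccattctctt
H2AC20: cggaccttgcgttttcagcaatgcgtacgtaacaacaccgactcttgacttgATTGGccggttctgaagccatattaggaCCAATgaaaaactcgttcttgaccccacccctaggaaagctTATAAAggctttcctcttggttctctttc
H2AC25: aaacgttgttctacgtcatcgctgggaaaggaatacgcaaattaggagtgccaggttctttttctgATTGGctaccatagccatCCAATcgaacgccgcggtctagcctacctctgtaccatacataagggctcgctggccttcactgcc
The window of H2BC5 holds 3 CCAAT and 1 TATAAA matches and no octamer, while those of H2BC12 and H2BC21 hold 1 octamer each. The window of H2AC25, the gene that rose, holds 2 CCAAT matches and neither of the other motifs.

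Over the 250 bases before the start, with CCAAT and the octamer sought on both strands and TATAAA on the gene's strand within the last 60 bases, 65 of the 70 replication-dependent genes had a promoter in the table. CCAAT was present in 84.6% of these, the octamer in 40% and TATAAA in 55.4%, where all 35116 promoters gave 32%, 1.63% and 2.78%. By family, 14 of 18 H2B, 11 of 16 H2A and 1 of 12 H3 promoters held the octamer, and no H1 or H4 promoter did. CCAAT was held by 3 of 13 H4 promoters and by every promoter of the other families. Windows of divergent neighbours overlap, as for H2AC20 and H2BC21 or H2AC11 and H2BC11, so a match may be counted for both genes. The window of H3C4, the only H3 promoter with the octamer, is the same as that of H2AC7. All motif counts in this paragraph are therefore of promoters and not of separate sites. In detected and undetected genes respectively, CCAAT stood in 12 of 15 and 43 of 50, the octamer in 5 of 15 and 21 of 50, and TATAAA in 10 of 15 and 26 of 50. Among the genes that fell, 9 of 11 held CCAAT, 5 of 11 the octamer and 9 of 11 TATAAA. No motif match overlapped a match of another motif in the 79 replication-dependent and variant promoters searched. A match describes the letters in the window and not a bound site.

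Among the 8 detected variant genes, all of them detected on every array, 3 fell, 1 rose and 4 did not pass, with a median difference of -0.21. Of all genes tested 17% fell, 19.7% rose and 36.7% passed either way. Of the 8 genes, 6 had every sorafenib array below every control array and 1 had every sorafenib array above, where 25.7% and 27.8% of all genes tested did so. The corresponding counts for the 16 replication-dependent genes were 12 and 1. Among the 12 were H2AC6, H2AC17 and H4C12, which met the detection rule only through their control arrays. The difference between the classes was not tested.

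H2AX encodes the variant phosphorylated around DNA double-strand breaks, and its mRNA exists in both a stem-loop and a polyadenylated form. It was the variant that fell most. Its values were 9.67, 9.58 and 9.69 in control cells and 8.73, 8.64 and 8.75 with sorafenib, a 1.92-fold fall (-0.94 ± 0.07, adjusted p = 0.00018). H2AZ1 and H2AZ2 encode the H2A.Z proteins, which are deposited around transcription start sites. H2AZ2 went from 7.87, 7.90 and 8.12 to 7.35, 7.13 and 7.34, a 1.62-fold fall (-0.69 ± 0.10, adjusted p = 0.00234). H2AZ1 went from 14.50, 14.59 and 14.57 to 14.13, 14.20 and 14.23, a 1.29-fold fall (-0.37 ± 0.07, adjusted p = 0.00585). Both fell without overlap between the groups. H2AJ, a variant gene on chromosome 12, gave 10.63, 10.64 and 10.72 against 10.40, 10.42 and 10.63, and its difference of -0.18 ± 0.08 did not pass (adjusted p = 0.138). It passed without sorafenib replicate 3 (-0.26, adjusted p = 0.0411).

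H3.3, the replacement form of H3 that is deposited also outside S phase, is encoded by H3-3A and H3-3B. H3-3A read 14.67, 14.63 and 14.60 in control cells and 14.44, 14.49 and 14.46 with sorafenib. The groups did not overlap, yet the difference of -0.16 ± 0.06 (95% interval -0.31 to -0.02) did not pass (adjusted p = 0.0795), and the other 2 H3-3A probes differed by -0.18 and -0.20 without passing. H3-3B read 10.02, 9.93 and 10.04 against 9.92, 9.75 and 9.63, a difference of -0.23 ± 0.09 that did not pass (adjusted p = 0.087) but did so without sorafenib replicate 1 (-0.31, adjusted p = 0.0462). With a trended, robust variance both passed (adjusted p = 0.00857 for H3-3A and 0.0378 for H3-3B), which brought the variants that fell to 5. H3-5, a near-identical retrocopy of an H3.3 gene, differed by -0.09 ± 0.09 (95% interval -0.31 to 0.12, adjusted p = 0.47). The pseudogene H3P6 differed by -0.19 ± 0.07 (adjusted p = 0.0785). The probes of H3-5 and H3P6 may read H3.3 mRNA, so both are uncertain.

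H1-10, a linker histone variant made also outside S phase, was the variant that rose. Its values were 8.21, 8.14 and 8.46 in control cells and 8.68, 8.65 and 8.70 with sorafenib, a 1.33-fold rise (0.41 ± 0.09, adjusted p = 0.0151). All sorafenib arrays lay above all control arrays. Without control replicate 1 the adjusted p was 0.0551.

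The promoter windows of H2AX (chr11:119095466-119095615, minus strand), the variant that fell most, and of H3-3B (chr17:75779780-75779929, minus strand), which did not pass, are set side by side.
H2AX: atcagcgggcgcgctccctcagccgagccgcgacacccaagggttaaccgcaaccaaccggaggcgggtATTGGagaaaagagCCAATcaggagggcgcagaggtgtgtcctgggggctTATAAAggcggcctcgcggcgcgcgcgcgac
H3-3B: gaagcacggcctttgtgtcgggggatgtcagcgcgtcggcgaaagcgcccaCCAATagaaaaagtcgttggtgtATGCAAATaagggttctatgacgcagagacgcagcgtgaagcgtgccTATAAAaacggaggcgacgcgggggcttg
Both carry CCAAT and TATAAA, and H3-3B also carries the octamer. Among 14 variant promoters, 13 held CCAAT, 1 the octamer and 4 TATAAA. The promoter without CCAAT was that of H1-10, which rose, and it held TATAAA.

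**Figure D3:**
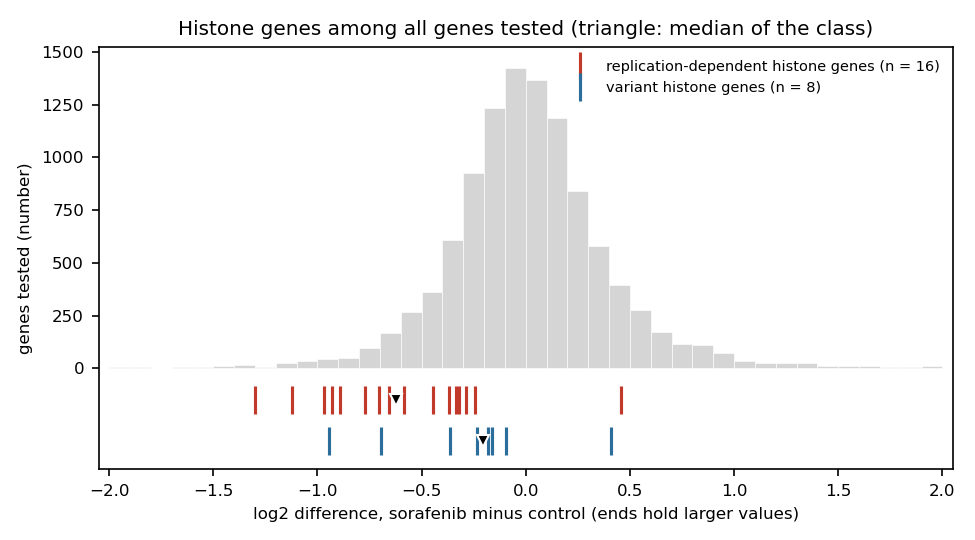
Histogram of log2 differences (x axis; sorafenib minus control, with values beyond the ends placed in the end bins) over the 10598 genes tested, with each detected histone gene as a tick below it and the class median as a triangle. The replication-dependent genes (n = 16) have a median of -0.62 and the variants (n = 8) of -0.21, and 1 gene of each class lies above 0.

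Histone variants whose symbols do not carry these prefixes went both ways. CENPA, which encodes the H3 variant of centromeres, fell by 0.55 ± 0.07 on the log2 scale (adjusted p = 0.00148). MACROH2A2 rose by 0.21 ± 0.07 (adjusted p = 0.0456), and that call was lost when any single array was left out (adjusted p 0.0706 to 0.132). MACROH2A1 differed by -0.14 ± 0.06 without passing (adjusted p = 0.131).

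Genes that act on histone supply were read from lists drawn up by role, and the counts below stand beside 17% lower and 19.7% higher over all genes tested. The 4 lists, S phase included, are not separate, because 6 genes stand in 2 of them. CHAF1B, MCM2, NASP and SLBP fell and are counted in both of their lists, and CASP8AP2 and CCNE2 were not detected. In the list for histone gene transcription, 4 of 7 measured genes fell and none rose, with a median of -0.39. CCNE1, the cyclin whose kinase activates the histone gene coactivator NPAT, fell 1.98-fold (-0.98 ± 0.06, adjusted p = 0.000119), its kinase CDK2 1.52-fold (adjusted p = 0.000648) and CCNA2, an S phase cyclin, 1.33-fold (adjusted p = 0.00743). NPAT itself was not detected. The H4 gene regulator HINFP differed by 0.14 ± 0.07 without passing (adjusted p = 0.195); it was chosen for its role after its value was seen.

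Factors of the histone mRNA 3′ end and its turnover were split, with 4 of 10 lower and 3 higher and a median of -0.11. SYMPK, the scaffold of the cleavage complex, rose by 0.37 ± 0.09 (adjusted p = 0.0217), and LSM10, a subunit of the U7 particle that recognizes histone pre-mRNA, by 0.33 ± 0.08 (adjusted p = 0.0146). CSTF2, a polyadenylation factor that also joins the histone cleavage complex, fell by 0.30 ± 0.07 (adjusted p = 0.0167). SLBP, the protein that binds the histone stem-loop, was chosen for its role after its value was seen, and fell by 0.23 ± 0.06 (adjusted p = 0.0276). Leaving out 1 array ended the SLBP call in 5 of 6 cases and the SYMPK call in 4 of 6 (adjusted p 0.0503 to 0.0742, without control replicate 1 or 2 or sorafenib replicate 2 or 3). The CSTF2 call was lost without sorafenib replicate 1 or 2 (adjusted p 0.0563 and 0.0555), and the LSM10 call without sorafenib replicate 1 (0.0512). Leaving out single arrays put the number that fell at 1 without control replicate 1, 3 without control replicate 2, 1 without control replicate 3, 0 without sorafenib replicate 1 or 2 and 1 without sorafenib replicate 3. The number that rose was 1 without control replicate 1 or sorafenib replicate 2, and 2 or 3 without any other single array. With median centring over all probes 0 genes fell, and with centring over the tested probes 2 did.

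Histone chaperones, which escort new histones to DNA, had 9 of 28 measured genes lower and none higher, with a median of -0.19. ASF1B, the chaperone that hands new H3-H4 to the assembly factors, fell 1.88-fold (-0.91 ± 0.09, adjusted p = 0.000452). CHAF1A, the large subunit of the assembly factor CAF-1 that acts at replication forks, fell by 0.46 ± 0.08 (adjusted p = 0.00581), and HJURP, the chaperone of CENPA, by 0.46 ± 0.06 (adjusted p = 0.0018). Its H3.3 counterparts HIRA and DAXX, chosen for their role after their values were seen, differed by -0.11 ± 0.18 and -0.21 ± 0.08 without passing. With median centring over all probes in place of quantile normalization, 4 chaperone genes fell and the CHAF1A call was lost (adjusted p = 0.0522). With centring over the tested probes 9 fell and 1 rose.

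Among markers of S phase, 23 of 35 measured fell and 1, USP1, rose, with a median of -0.38. RRM2, a ribonucleotide reductase subunit, fell 3.01-fold, UHRF1, which guides maintenance DNA methylation, 2.01-fold and PCNA, the replication clamp, 1.75-fold. With median centring over all probes 15 of the list fell, and with centring over the tested probes 25. The part of S phase in the fall of the histone genes was not tested.

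**Figure D4:**
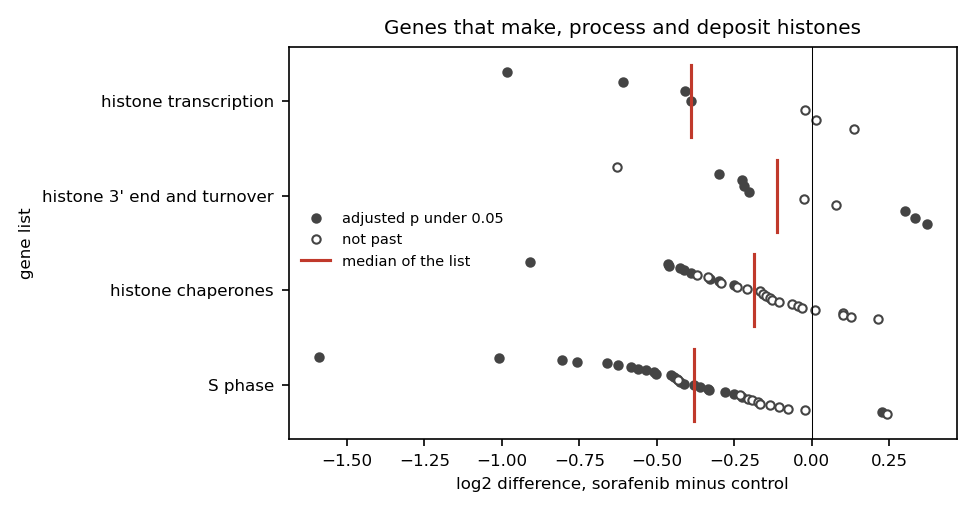
Log2 difference (x axis; sorafenib minus control) of each measured gene in 4 lists (rows), with filled points for an adjusted p under 0.05, open points for the rest and a red line at the list's median. Medians are -0.39 for histone transcription, -0.11 for 3′ end and turnover, -0.19 for chaperones and -0.38 for S phase.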

How the data were processed

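Per the file headers, the values the authors deposited for 47321 probes on 6 arrays were unnormalized intensity beside a detection p-value. A deposited table of log2 values had no stated method. Taking log2 of the intensity and quantile-normalizing gave those log2 values within 5.0e-07, and each of its columns had a median of 6.79. Per the labels' protocols, spin-column RNA was treated with DNase I and biotinylated. The scanner software, slides and scan dates were not stated.

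Intensities were corrected with limma 3.58.1 in R 4.3.3 (neqc, offset 16, background from detection p-values) and quantile-normalized. Probes detected (p under 0.01) on at least 3 arrays, 16909 in all, were fitted with lmFit and eBayes, two-sided, without a block. Probe genes came from the supplied platform annotation: 30112 probes had 1 symbol, 8 several and 17201 none. No member's symbol needed updating. Each gene was read from its brightest tested probe (10598 genes). Where a group had no detected array, the fold is a bound on the background-corrected scale. On each array the dim level was the lowest signal of any detected probe, or the probe's own if higher. Every detected member is named; other lists give up to 3 genes with the largest differences past the threshold, besides CENPA, MACROH2A1 and MACROH2A2. Markers were 10 for hepatocytes and liver cancer, of which 2 rose, 1 fell and 5 did not pass, and 11 for other cell types. Members and lists were chosen with earlier results of these data known. No list test was run. In simulated data with 50 changed probes per size, the fit recovered 0% at a log2 change of 0.25, 44% at 0.5, 92% at 1 and 98% at 2. Far fewer of the 16909 probes changed there than passed in the data, so these shares may not carry over. A gene that did not pass may still have changed by a small amount. The number of arrays limits the precision.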

Additional observations from a re-analysis of the deposited data

How the results depend on the processing

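The 19 alternatives changed the background correction, normalization, filter, variance model, weights, block, probe or arrays. Of 17 histone genes past the threshold, 14 kept call and direction wherever tested; H4C14, H2AC17 and H1-10 did not. Of 8 histone genes that did not pass, 6 passed under some alternative, and H1-1 changed sign without sorafenib replicate 3 (range when 1 array was left out, -0.42 to 0.085). The replication-dependent genes that fell numbered 10 to 14 when 1 array was left out. Their median was -0.39 without background correction and with the deposited log2 values, -0.41 with normexp at an offset of 50, -0.53 with median centring over all probes, -0.74 with detection required on all arrays, -0.51 with a detection p under 0.05, and -0.095 with no filter, where undetected genes enter. The variant median was -0.14 with median centring over all probes, -0.22 with centring over the tested probes and -0.094 with no filter, and 5 variants fell with a trended, robust variance. In the 3′ end list the number that fell was 0 with median centring over all probes, 2 with centring on the tested probes, 2 with the looser detection limit, 1 with no filter and 0 to 3 when 1 array was left out, where the number that rose was 1 to 3 against 3. With median centring over all probes, 4 chaperones and 15 S phase genes fell (9 and 25 with centring over the tested probes), and 2063 genes rose and 894 fell in all, against 2084 and 1801. The median difference of all genes tested was 0.074 with median centring over all probes and -0.012 with centring over the tested probes. Both centrings subtract a constant per array, so they differ from each other by the same shift for every gene. Except for that shift and for the filters, which change the genes tested, the cause was not tested. Deviations of same-numbered samples correlated at 0.0889, 0.101 and 0.252, and not every sample correlated best with its own number, so the numbers were not taken as pairs. The fit with the replicate number as a block called 5509 probes against 5774, and 2 genes of the 3′ end list fell. Probes below detection limit what can be said of the 54 undetected replication-dependent genes.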
